A study of Mus musculus with 8 samples.

Results

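The 10 genes described here belong to the bone morphogenetic protein (BMP) pathway. They are the ligand genes *Bmp2*, *Bmp4*, *Bmp5* and *Bmp7*, the target genes *Id1*, *Id3* and *Id4*, and the inhibitor genes *Smad6*, *Smad7* and *Bambi*, which are themselves BMP targets. The genes were chosen by name, and all 10 were measured among the 24304 genes that carried a named spot. Together they had 15 spots, and each gene is given by its brightest spot, the spot with the highest mean over the 8 arrays. Lungs of C57bl/6J mouse embryos at E12.5, a stage of branching airways, were cultured on filters with IQ1 at 10 µM or as controls. IQ1 is a small molecule used to change which coactivator β-catenin works with. IQ1 lungs gave 3 arrays at 9 h and 1 array at 24 h, and control lungs gave the same numbers. The 24 h lungs were pooled and came from a separate experiment, so that culture time, pooling and experiment cannot be told apart. GEO's descriptions add FGFR2b inhibition for the IQ1 samples and call the controls untreated, the protocol gives PBS as the vehicle, and the methods dissolve IQ1 in DMSO, so that solvent and IQ1 cannot be told apart if the solvents differed. RNA was taken from whole homogenized lungs, in which fewer cells of a type and less RNA per cell cannot be told apart.

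The levels below are quantile-normalized log2 intensities, so that 1 unit is a 2-fold difference, and a level is compared only with the level of the same spot on other arrays. Over its spots each of the 8 arrays had the same median, 6.29, and the same lower quartile, 4.34. Control replicate 2 at 9 h stood apart, with a Pearson correlation of 0.583 to 0.602 to the other 7 arrays, which correlated with each other at 0.953 to 0.982. On this array 9 of the 10 genes were lower than the mean of control replicates 1 and 3, as were 58.8% of all genes. The 9 were lower by 0.51 (*Smad6*) to 3.76 (*Id1*) on the log2 scale, and *Bmp7* was higher by 4.04. The median difference was -0.45 over all genes. It was -1.39 over the genes above the median gene mean, where most of the 10 lay. The differences of the 10 genes at 9 h are therefore given with this array (6 arrays) and without it (5 arrays). The lung markers were present in all groups: *Nkx2-1*, a transcription factor of lung epithelium, lay at 10.35 to 11.35 on the IQ1 arrays at 9 h, 9.19 to 11.06 on the control arrays at 9 h, 10.65 on the IQ1 array at 24 h and 11.42 on the control array at 24 h.

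BMP ligands bind pairs of type I and type II receptor kinases, which phosphorylate SMAD1, SMAD5 and SMAD9. These join SMAD4, enter the nucleus and switch on targets such as the *Id* genes, whose products bind bHLH transcription factors and keep them off DNA. SMAD6 and SMAD7 are inhibitory SMADs that block the receptors and the SMADs they activate, and BAMBI is a membrane protein that resembles a type I receptor but has no kinase, so that the 3 form feedback loops. In the embryonic lung *Bmp4* is expressed in the tips of the epithelial buds and in mesenchyme, *Bmp5* mainly in mesenchyme and *Bmp7* mainly in epithelium.

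The promoters of 5 of the 10 genes (*Bmp4*, *Bmp5*, *Id3*, *Id4* and *Smad6*) could be matched in the RefSeq sequences of build GRCm38.p6, each from 250 bases before to 50 bases after the start of the gene. Shown are *Id4*, which of the 10 had the largest difference at 24 h in the IQ1 comparison, *Bmp5*, which differed most between control lungs at 24 h and at 9 h, and *Smad6*, whose promoter was the only match to the palindromic SMAD motif among the 5. They lie at chr13:48260866-48261165 on the plus strand (*Id4*), chr9:75775115-75775414 on the plus strand (*Bmp5*) and chr9:64022010-64022309 on the minus strand (*Smad6*), and run 5′ to 3′ along the gene. Capitals mark the motif GGCGCC in *Id4* and the motif GTCTAGAC in *Smad6*, and *Bmp5* holds none of the motifs searched.
Id4: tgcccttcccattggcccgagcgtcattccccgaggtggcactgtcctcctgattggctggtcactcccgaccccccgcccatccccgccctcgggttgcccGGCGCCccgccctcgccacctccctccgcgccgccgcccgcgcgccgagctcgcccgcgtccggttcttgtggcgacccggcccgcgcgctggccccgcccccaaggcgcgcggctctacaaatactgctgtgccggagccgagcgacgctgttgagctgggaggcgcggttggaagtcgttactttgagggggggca
Bmp5: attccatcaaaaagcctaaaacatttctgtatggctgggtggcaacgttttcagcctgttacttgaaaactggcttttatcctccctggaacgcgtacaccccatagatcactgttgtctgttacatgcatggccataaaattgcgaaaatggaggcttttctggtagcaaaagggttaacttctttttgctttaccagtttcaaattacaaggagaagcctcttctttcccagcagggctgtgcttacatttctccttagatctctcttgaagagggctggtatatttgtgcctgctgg
Smad6: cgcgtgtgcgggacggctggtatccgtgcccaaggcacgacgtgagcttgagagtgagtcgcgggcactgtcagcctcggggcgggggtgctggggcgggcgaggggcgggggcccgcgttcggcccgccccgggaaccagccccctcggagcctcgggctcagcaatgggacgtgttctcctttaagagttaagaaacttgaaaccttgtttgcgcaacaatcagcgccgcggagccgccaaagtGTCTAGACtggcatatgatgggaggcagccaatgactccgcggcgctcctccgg
GTCTAGAC, a palindrome bound by SMAD proteins, was found at position -4 of *Smad6*, counted from the start of the gene, and in 70 of 32851 mouse promoters of the same length (0.213%). GGCGCC, a GC-rich element of BMP-responsive promoters, was found at position -148 of *Id4* and in 11.9% of all promoters. Neither motif overlapped the other, and both are their own reverse complement, so that both strands were read. ATCAAAG, a core bound by the TCF/LEF partners of β-catenin, and its reverse complement CTTTGAT were found in 3.73% of all promoters and in none of the 5. These matches describe the letters of a short window and not binding.

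The main comparison asked whether IQ1 altered the BMP ligands and targets after 9 h, and whether the 24 h arrays showed the same direction. None of the 10 genes passed limma's moderated test, a test on each gene with a spread shared in part between genes, after Benjamini-Hochberg adjustment over 24304 genes at a threshold of 0.05. This held with all 6 arrays, where 0.0% of all genes passed, without control replicate 2, where 0.0123% passed, and with array weights, where 0.959% passed. At an unadjusted p under 0.05 none of the 10 was found with 6 or with 5 arrays, against 2.02% and 8.38% of all genes. *Id4* and *Bmp2* were the genes with the largest differences in the 5-array fit and at 24 h, and both were higher with IQ1. The median difference over the 10 genes was 0.97 with 6 arrays, 0.01 with 5 arrays and -0.16 at 24 h, against 0.16, 0.01 and 0.02 over all genes. With 6 arrays the median over the genes above the median gene mean was 0.44.

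**Figure D1:**
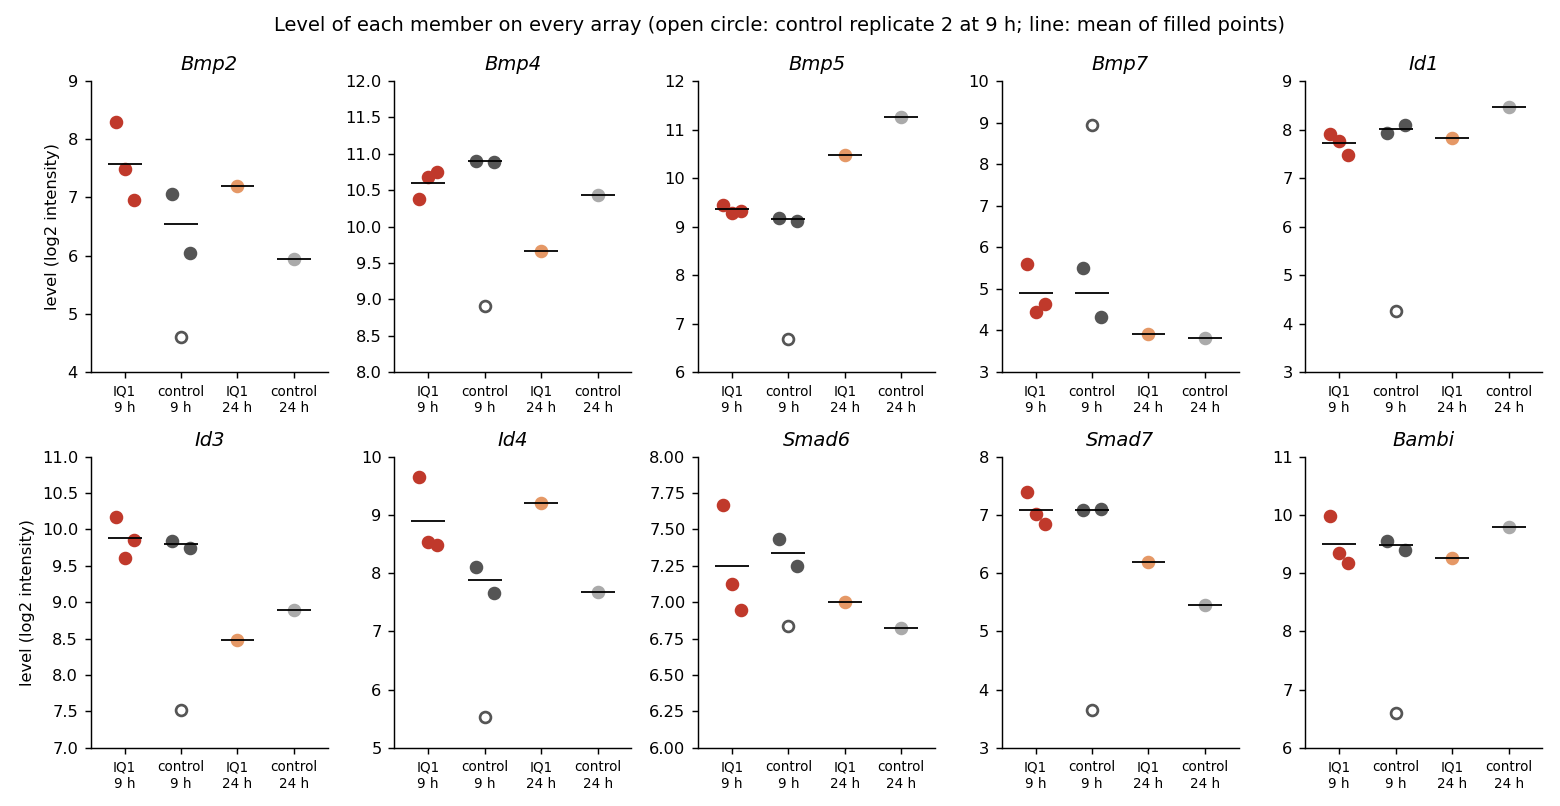
Level (log2 intensity) of each of the 10 genes on every array, with IQ1 left of control at 9 h and at 24 h. Open circles are control replicate 2 at 9 h, which lies below the other controls for 9 genes and above them for *Bmp7*, and lines are means of the filled points.

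Among the ligands, *Bmp2*, a ligand that also acts in bone and heart formation, had levels of 8.29, 7.49 and 6.96 on the IQ1 arrays at 9 h, against 7.05, 4.60 and 6.04 on the control arrays. The groups overlapped, since the lowest IQ1 array lay just below control replicate 1. The mean level was 7.58 ± 0.67 with IQ1, against 5.90 ± 1.23 in controls (SD, n = 3 each), or 6.55 in controls without replicate 2. The difference was 1.68 with 6 arrays (SE 0.73, limma adjusted p = 0.73) and 1.03 with 5 arrays (SE 0.48, 95% interval -0.14 to 2.21, limma adjusted p = 0.64), which is 2.05-fold. At 24 h *Bmp2* was at 7.20 on the IQ1 array and at 5.93 on the control array, a difference of 1.27 or 2.41-fold. Its sign was thus the same at both times.

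*Bmp4*, the main BMP ligand of the distal buds, had levels of 10.38, 10.69 and 10.75 on the IQ1 arrays at 9 h and of 10.90, 8.90 and 10.89 on the control arrays. All IQ1 arrays lay below control replicates 1 and 3 and above control replicate 2. Hence the difference was 0.37 with 6 arrays (limma adjusted p = 0.79) and -0.29 with 5 arrays (SE 0.23, 95% interval -0.85 to 0.26, limma adjusted p = 0.81). At 24 h the levels were 9.67 with IQ1 and 10.43 in the control, a difference of -0.76. The second *Bmp4* spot showed less, with -0.03 at 9 h without control replicate 2 and -0.08 at 24 h, so that the 24 h value rested on the brighter spot.

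*Bmp5*, a ligand related to *Bmp7*, had levels of 9.44, 9.29 and 9.33 on the IQ1 arrays at 9 h, against 9.18, 6.69 and 9.12 on the control arrays. No IQ1 array overlapped with a control, but the gap to the nearest control was small, and the difference was 1.02 with 6 arrays (SE 0.74, limma adjusted p = 0.73) and 0.20 with 5 arrays (SE 0.21, 95% interval -0.30 to 0.71, limma adjusted p = 0.86). At 24 h the order was the opposite, with 10.48 on the IQ1 array and 11.26 on the control array, a difference of -0.78. The 4 spots of *Bmp5* differed by 0.20, 0.07, -0.23 and -0.13 at 9 h without control replicate 2, from the brightest to the dimmest. At 24 h the same spots gave -0.78, -0.98, -1.14 and 0.15, so that the 3 brighter spots were lower on the IQ1 array and the dimmest was not. The ligand *Bmp7* was dim, with levels of 5.60, 4.45 and 4.65 on the IQ1 arrays at 9 h, 5.49, 8.95 and 4.31 on the control arrays at 9 h, 3.91 on the IQ1 array at 24 h and 3.82 on the control array at 24 h. The value of 8.95 was control replicate 2, and the difference was -1.35 with it and -0.0027 without it (95% interval -1.19 to 1.18).

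*Id4*, an inhibitor of bHLH factors, had levels of 9.65, 8.53 and 8.48 on the IQ1 arrays at 9 h, against 8.11, 5.53 and 7.66 on the control arrays. Each IQ1 array lay above each control array. With IQ1 the mean was 8.89 ± 0.66, and in controls it was 7.10 ± 1.38 (SD, n = 3 each), or 7.88 without replicate 2. The difference was 1.79 with 6 arrays (SE 0.78, limma adjusted p = 0.73) and 1.01 with 5 arrays (SE 0.42, 95% interval -0.0027 to 2.02, unadjusted p = 0.0505 in limma's test, adjusted p = 0.60), which is 2.01-fold. With array weights it was 0.72 (unadjusted p = 0.0406 in limma's test, adjusted p = 0.29), and *Id4* was the only one of the 10 under 0.05 before adjustment, against 15.9% of all genes. At 24 h *Id4* was at 9.21 on the IQ1 array and at 7.68 on the control array, a difference of 1.53 or 2.88-fold.

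For the other *Id* genes the sign or size at 9 h depended on control replicate 2, and no difference between the *Id* genes was tested. *Id1*, widely used as a readout of BMP signaling, had levels of 7.90, 7.76 and 7.48 on the IQ1 arrays at 9 h, against 7.94, 4.25 and 8.10 on the control arrays. Here the IQ1 arrays lay just below control replicates 1 and 3 and far above control replicate 2, giving 0.95 with 6 arrays and -0.30 with 5 arrays (SE 0.23, 95% interval -0.87 to 0.27, limma adjusted p = 0.80). At 24 h *Id1* was at 7.82 on the IQ1 array and 8.47 on the control array, a difference of -0.66. *Id3*, a close relative of *Id1*, had levels of 10.18, 9.61 and 9.85 on the IQ1 arrays at 9 h, against 9.84, 7.52 and 9.75 on the control arrays, and the groups overlapped. The difference was 0.84 with 6 arrays (SE 0.70, limma adjusted p = 0.73) and 0.085 with 5 arrays (95% interval -0.53 to 0.70), and at 24 h it was -0.41, with 8.49 on the IQ1 array and 8.89 on the control array. *Id2*, the remaining member of this family, is listed below among the other targets and differed by 0.91 at 9 h with 6 arrays, by 0.03 with 5 arrays and by -0.02 at 24 h.

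For the inhibitors *Smad7* and *Bambi* the difference at 9 h rested on control replicate 2, while *Smad6* differed by less than 0.1 with and without it. *Smad6* had levels of 7.67, 7.12 and 6.95 on the IQ1 arrays, against 7.43, 6.84 and 7.25 on the control arrays, with overlapping groups in both fits. *Smad7* had levels of 7.40, 7.02 and 6.85 on the IQ1 arrays, against 7.09, 3.65 and 7.09 on the control arrays. *Bambi* had levels of 9.98, 9.35 and 9.17 on the IQ1 arrays, against 9.55, 6.61 and 9.40 on the control arrays. For each of the 3, the highest of the 6 arrays at 9 h was IQ1 replicate 1, and the groups overlapped even without control replicate 2. With 6 arrays the differences were 0.07 for *Smad6* (SE 0.40, limma adjusted p = 0.94), 1.14 for *Smad7* (SE 0.99, adjusted p = 0.73) and 0.98 for *Bambi* (SE 0.86, adjusted p = 0.73). The 5-array differences were -0.096 for *Smad6* (95% interval -0.79 to 0.60), -0.0019 for *Smad7* (95% interval -0.61 to 0.61) and 0.025 for *Bambi* (95% interval -0.71 to 0.76), so that differences of up to about 1.5-fold in either direction remained within the intervals of all 3. At 24 h *Smad6* was at 6.999 on the IQ1 array and 6.83 on the control array, a difference of 0.17. *Smad7* was at 6.18 on the IQ1 array and 5.46 on the control array, a difference of 0.73, and *Bambi* was at 9.26 on the IQ1 array and 9.79 on the control array, a difference of -0.53. None of the 3 was thus past 2-fold at 24 h. The dimmer *Smad7* spot gave -0.66 at 9 h without control replicate 2 and 0.18 at 24 h.

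**Figure D2:**
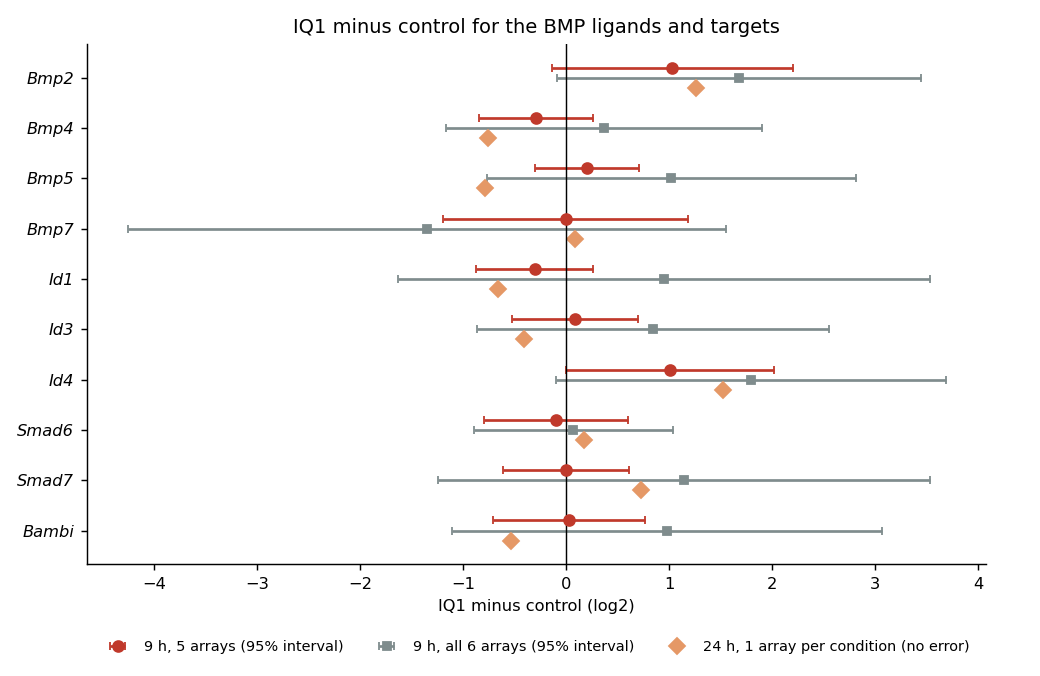
Difference IQ1 minus control (log2) for the 10 genes, with 95% intervals at 9 h from 5 arrays (red circles) and from all 6 arrays (grey squares), and the difference at 24 h from 1 array per condition without error (diamonds). All intervals include 0, and *Bmp2* and *Id4* lie above 1 in the 5-array fit and at 24 h.

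Over the 10 genes, the IQ1 and control arrays at 9 h did not overlap for 2 higher genes (*Bmp5* and *Id4*) with 6 arrays, against 8.33% of all genes, and for 0 lower genes, against 5.25%. Without control replicate 2 there were 2 higher genes, the same ones, and 2 lower genes (*Bmp4* and *Id1*), against 13.1% of all genes in each direction and 26.2% in either. At 24 h 2 of the 10 genes, *Bmp2* and *Id4*, were more than 2-fold higher with IQ1, against 5.64% of all genes, and 0 were more than 2-fold lower, against 4.97%. *Bmp2* and *Id4* were also more than 2-fold higher in the 5-array fit, and 0.63% of all genes passed this size at both times. *Id4* was also without overlap at 9 h and higher by over 2-fold at 24 h, as were 1.34% of all genes. In sign, 4 of the 10 genes went the same way at 9 h without control replicate 2 and at 24 h, against 58.8% of all genes. The 24 h differences come from 1 array per condition and have no test.

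The cell type markers moved between the conditions as well. The 14 endothelial markers averaged 5.57 to 5.84 on the IQ1 arrays at 9 h, against 7.48 to 7.78 on the control arrays, and 14 of 14 were lower in the 5-array fit, with a median of -2.15. At 24 h their mean was 5.55 on the IQ1 array and 7.62 on the control array. The 5 mesothelial markers averaged 8.70 to 9.69 on the IQ1 arrays at 9 h, against 6.63 to 8.18 on the control arrays, and 4 of 5 were higher. *Msln*, a marker of mesothelium, was the mesothelial marker with a mean below the lower quartile of the arrays. The 5 macrophage markers averaged 9.19 to 9.35 on the IQ1 arrays at 9 h, against 7.09 to 8.73 on the control arrays, with 4 of 5 higher, and at 24 h 10.18 on the IQ1 array and 9.43 on the control array. The 5 smooth muscle markers averaged 9.91 to 10.41 on the IQ1 arrays at 9 h, against 9.26 to 9.64 on the control arrays, with 5 of 5 higher. The 5 distal tip markers averaged 9.74 to 10.05 on the IQ1 arrays, against 8.49 to 10.36 on the control arrays, where only control replicate 2 lay below the IQ1 arrays, and 4 of 5 were lower without it. At 24 h the mesothelial, smooth muscle and distal tip means were 9.12, 10.97 and 9.57 on the IQ1 array, and 7.74, 9.63 and 10.40 on the control array. The 6 epithelial markers averaged 9.54 to 10.35 on the IQ1 arrays at 9 h, against 9.43 to 9.62 on the control arrays. In the 5-array fit 4 were higher and 2 lower, with a median of 0.21. At 24 h their mean was 9.78 on the IQ1 array and 9.42 on the control array. At 24 h 5 of the 6 were higher and 1 lower. The keratin genes *Krt8* and *Krt18* were among the higher ones, by 1.44 and 1.16 at 9 h with 5 arrays and by 1.09 and 0.87 at 24 h. *Id4* and *Bmp2* had higher means with IQ1, as did the mesothelial, smooth muscle and macrophage markers and 4 of the 6 epithelial markers. *Bmp4* and *Id1* had lower means with IQ1 without control replicate 2, as did the endothelial markers and 4 of the 5 distal tip markers. The distal tip marker that was not lower was *Id2*, also a BMP target, with a difference of 0.03. Of the 7 mesenchymal markers, 4 were higher and 3 lower in the 5-array fit. The part of these cell types in the BMP values was not tested.

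The second comparison set control lungs at 24 h against control lungs at 9 h. With all 8 arrays in 4 groups, in which the single 24 h array was assumed to vary like the others, none of the 10 genes and 0.0% of all genes passed limma's moderated test, and *Bmp5* was the only one of the 10 with an unadjusted p under 0.05, against 1.76% of all genes. Without control replicate 2 none of the 10 passed, against 0.00823% of all genes, and 3 were under 0.05 before adjustment (*Bmp5*, *Smad7* and *Id3*), against 10.5%. With array weights 3 were under 0.05 before adjustment, against 17.9%. The median over the 10 genes was 0.12 with all 8 arrays, against 0.15 over all genes, and -0.49 without control replicate 2, against 0.01 over all genes. In the fit without control replicate 2, 1 of the 10 was more than 2-fold higher, against 7.17% of all genes, and 2 (*Smad7* and *Bmp7*) were more than 2-fold lower, against 4.93%.

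*Bmp5* was at 11.26 on the control array at 24 h, against 9.18, 6.69 and 9.12 on the control arrays at 9 h. The 24 h array lay above all 3 controls at 9 h. The same was seen for *Id1* and *Bambi*, so that 3 of the 10 genes were higher in this way, against 27.2% of all genes, and 2 (*Bmp7* and *Smad6*) were lower, against 18.5%. Set against control replicates 1 and 3 alone, 3 were higher, against 39.9% of all genes, and 6 were lower, against 39.2%. For *Bmp5* the difference was 2.93 with all arrays (limma adjusted p = 0.92) and 2.11 without control replicate 2 (SE 0.28, 95% interval 1.44 to 2.79, unadjusted p = 0.000242 in limma's test, adjusted p = 0.16), which is 4.32-fold. It passed with array weights, with an adjusted p of 0.0260 in limma's test and a share of 0.568% of all genes called, and among the genes above the median level without control replicate 2, with an adjusted p of 0.0264 and a share of 0.337% called. The 4 spots of *Bmp5* gave 2.11, 0.77, 0.49 and -0.04 without control replicate 2, from the brightest to the dimmest, so that the size depended on the spot.

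*Smad7* was at 5.46 on the control array at 24 h, against 7.09, 3.65 and 7.09 on the control arrays at 9 h, and lay between replicate 2 and the others. With all arrays the difference was -0.49, and without replicate 2 it was -1.63 (SE 0.34, 95% interval -2.45 to -0.81, limma adjusted p = 0.29), and the dimmer spot gave -0.60. *Id3* was at 8.89 on the control array at 24 h, against 9.84, 7.52 and 9.75 on the control arrays at 9 h, a difference of -0.90 without replicate 2 (SE 0.34, limma adjusted p = 0.46) and of -0.14 with it. For both genes the 24 h array lay below control replicates 1 and 3 and above replicate 2. The remaining genes differed by -1.08 (*Bmp7*) to 0.45 (*Id1*) without control replicate 2, and by -2.43 (*Bmp7*) to 1.71 (*Id1*) with it. *Id4* and *Bmp2*, the genes with the largest IQ1 differences, gave -0.20 and -0.61 without it and 0.58 and 0.04 with it.

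**Figure D3:**
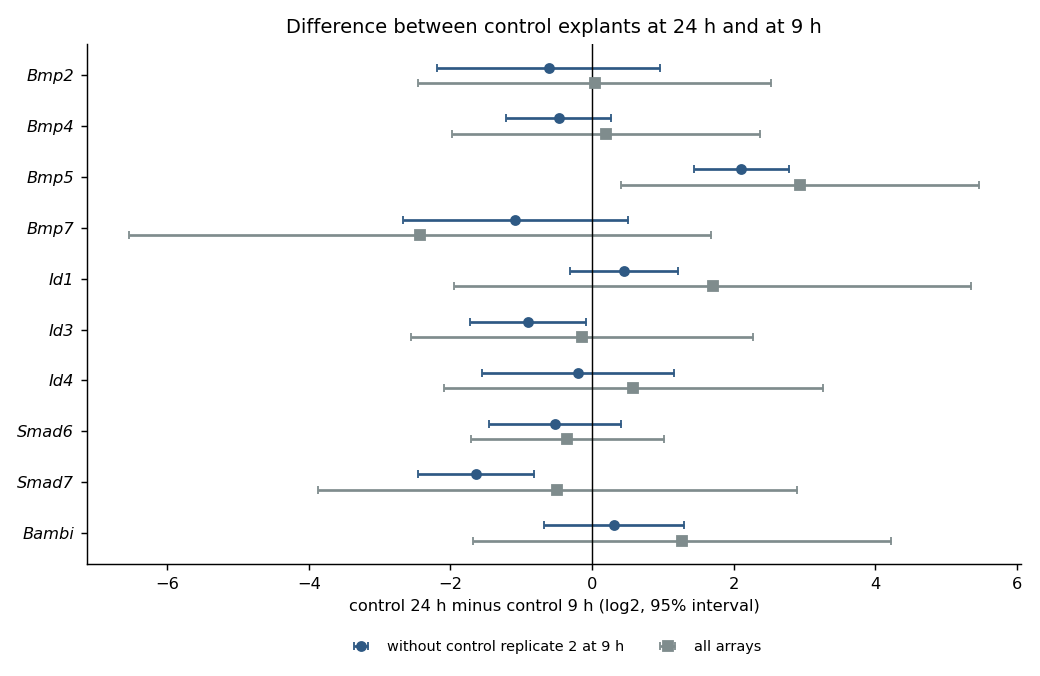
Difference control at 24 h minus control at 9 h (log2) for the 10 genes, with 95% intervals, without control replicate 2 at 9 h (blue circles) and with all arrays (grey squares). The interval of *Bmp5* lies above 0 in both fits, and those of *Smad7* and *Id3* lie below 0 only without control replicate 2.

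**Figure D4:**
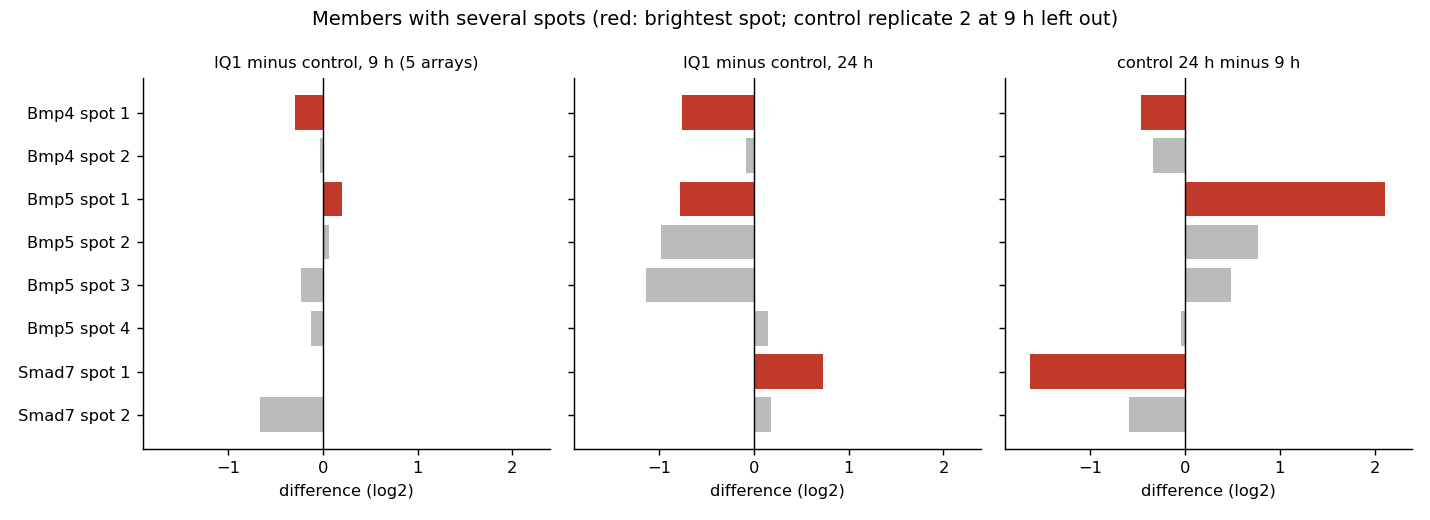
Difference (log2) of each spot of *Bmp4*, *Bmp5* and *Smad7*, the genes with several spots, in the IQ1 comparison at 9 h (5 arrays) and at 24 h and in control at 24 h minus control at 9 h, without control replicate 2. Red bars are the brightest spots; the 4 spots of *Bmp5* ran from 2.11 to -0.04 in the control comparison.

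The other genes of the pathway were read from a list of 50 genes, of which 49 were measured. None passed with 6 or with 5 arrays. In the 5-array fit 4 were higher and 5 lower at an unadjusted p under 0.05, where 8.38% of all genes were found, and with 6 arrays 2 were found, against 2.02% of all genes. The median difference over the list was 0.13 at 9 h with 6 arrays, 0.06 with 5 arrays and 0.14 at 24 h. The IQ1 and control arrays did not overlap for 8 higher and 11 lower genes without control replicate 2, against 13.1% of all genes in each direction, and for 4 higher and 5 lower genes with it, against 8.33% and 5.25%. Among the other 11 ligands, *Bmp3*, a ligand that opposes other BMPs, had levels of 7.95, 7.77 and 8.91 on the IQ1 arrays at 9 h, against 6.72, 7.14 and 5.77 on the control arrays, with no overlap. Its difference was 1.66 with 6 arrays, 1.96 with 5 arrays (SE 0.45, limma adjusted p = 0.34) and 0.89 at 24 h. *Gdf6*, a ligand of joint and eye development, differed by 1.02 with 6 arrays, 1.08 with 5 arrays and 0.57 at 24 h. *Bmp8b*, a ligand known from germ cells and brown fat, and *Gdf2*, the circulating ligand BMP9, differed by -0.85 and -2.27 at 9 h with 6 arrays, by -1.08 and -0.86 with 5 arrays and by 1.27 and 1.02 at 24 h, and both had means below the lower quartile of the arrays. *Bmp8b* was the only 1 of the 49 genes that passed with array weights, against 0.959% of all genes, with a difference of -1.20 and an adjusted p of 0.0458 in limma's test.

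None of the 7 receptor and 4 transducer genes passed in any of the 3 fits, the 6-array, the 5-array and the weighted. Those with the highest signal were the type I receptor gene *Bmpr1a* (0.76 at 9 h with 6 arrays, 0.12 with 5 arrays and 0.14 at 24 h), the type II receptor gene *Bmpr2* (0.05, 0.06 and 0.15) and, among the transducers, *Smad5* (0.35, -0.24 and -0.30). Without control replicate 2, the arrays at 9 h did not overlap for 4 of the 7 receptor genes, 2 higher and 2 lower. The same held for 2 of the 4 transducer genes, *Smad1* and *Smad9*, both lower and named after their values were seen. Of all genes, 26.2% did not overlap in either direction and 13.1% in each. With all 6 arrays this was seen for 0 receptor genes and 1 transducer gene (*Smad1*, lower), against 13.6% of all genes in either direction. *Smad1* differed by -0.60 and *Smad9* by -0.62 in the 5-array fit, and at 24 h they differed by -0.70 and -1.15. Of the 13 measured antagonists, which bind the ligands outside the cell, 8 were higher and 5 lower in the 5-array fit, with a median of 0.19. At 24 h 9 were higher and 4 lower, with a median of 0.49. Of those named by rule, *Grem1* differed by -0.49 at 9 h with 6 arrays, -0.97 with 5 arrays and -1.04 at 24 h, and *Dand5* by -0.77, -1.004 and 0.69. *Grem1* was dim, with levels of 3.84, 3.72 and 3.54 on the IQ1 arrays at 9 h, against 5.17, 3.24 and 4.17 on the control arrays.

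Of the 8 other targets, *Hey1*, a transcriptional repressor that answers to Notch as well as to BMP and is expressed in endothelium, had levels of 9.60, 9.82 and 10.24 on the IQ1 arrays at 9 h, against 11.14, 10.03 and 10.92 on the control arrays. The difference was -0.81 with 6 arrays. Without control replicate 2, the IQ1 arrays lay below the controls, and it was -1.14 (SE 0.27, limma adjusted p = 0.36). At 24 h *Hey1* was at 8.93 on the IQ1 array and 9.99 on the control array, a difference of -1.06. *Bmp3* and *Hey1* passed in limma's test with an intensity trend and a robust prior when control replicate 2 was left out, with adjusted p = 0.0424 and 0.0350. In that fit 139 of 24304 genes passed, and none of the 10 genes described first did. Neither *Bmp3* nor *Hey1* passed under any other setting. At 24 h 7 of the 8 other targets were lower on the IQ1 array and 1 was higher. Of these 8, 3 were more than 2-fold lower (*Hey1*, *Tbx3* and *Tbx2*), against 4.97% of all genes. The T-box genes *Tbx3* and *Tbx2*, named after their values were seen, differed by -1.46 and -1.06 at 24 h with 1 array per condition. At 9 h they differed by 0.11 and 0.81 with 6 arrays and by -0.25 and 0.02 with 5 arrays.

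**Figure D5:**
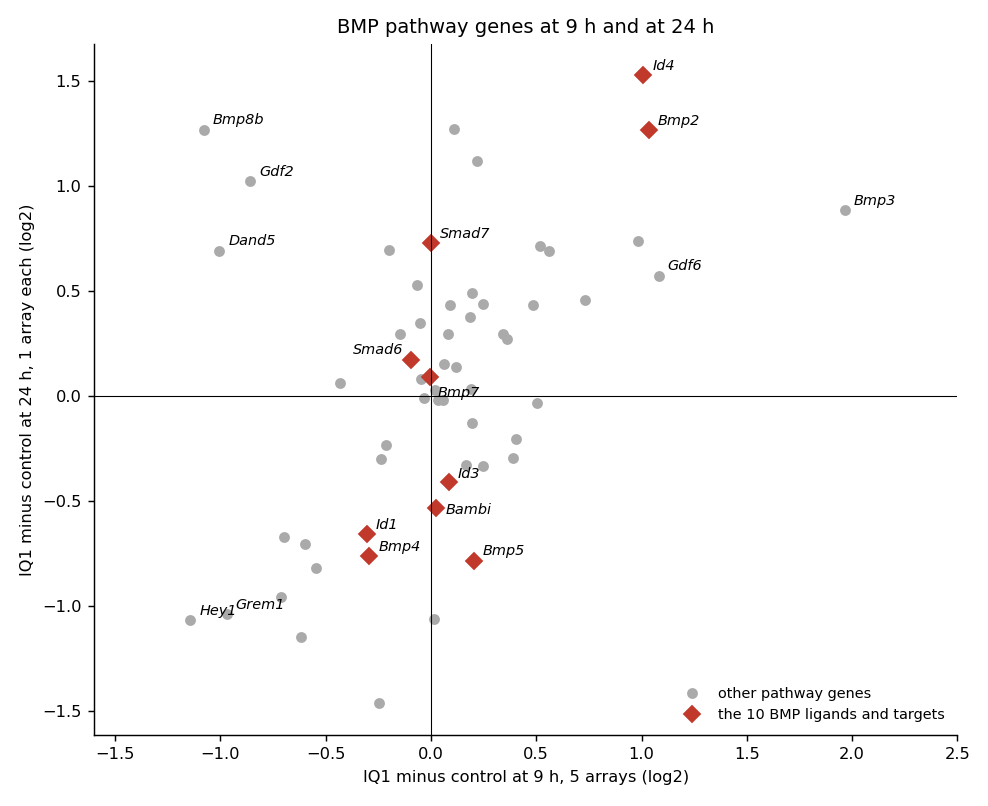
Difference IQ1 minus control at 24 h (1 array each) against that at 9 h (5 arrays), both log2, for the 10 genes (red diamonds) and the other measured genes of the pathway (grey points, labelled where named by rule). *Id4* and *Bmp2* are the red points furthest up and to the right, and *Bmp4* and *Id1* lie below 0 on both axes.

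Over the 7 arrays other than control replicate 2, the genes above the median level whose pattern was most like that of *Bmp4* were *Pcgf3* (Pearson's r 0.991), *Sec61a2* (0.984) and *Pitrm1* (0.982), and 195 genes had an r above 0.9. For *Id1* these were *Gse1* (0.987), *Mak16* (0.980) and *Mcm8* (0.974), with 41 genes above 0.9. These correlations are descriptions over 7 arrays that share conditions and times.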

How the data were processed

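RNA of cultured E12.5 mouse lungs was amplified as whole-transcriptome cDNA, labelled (Cy5 per the labels, Cy3 per the methods) and hybridized to Agilent 60-mer arrays. The authors deposited log2 intensities, which they had made in limma by NormExp background correction, a log transform and quantile normalization. This makes differences relative to the other spots of an array and hides differences in total signal. Amplification of little RNA adds error to dim spots. Signal over background was not used here, and the number of arrays limits the precision.

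Of 62976 spots, 43941 were named, 33708 through their accession, 9763 through the listed symbol, 463 through a synonym and 7 as listed, with a RefSeq gene table; 8 named spots with missing values were left out. The brightest spot per gene was kept, with no filter on dim genes. Groups followed the labels. GEO calls the 9 h arrays biological replicates but does not say whether they came from separate litters or cultures, so p-values measure only the spread between these arrays. Differences were fitted in R 4.3.3 with lmFit and eBayes of limma 3.58.1 (two-sided tests, Benjamini-Hochberg adjustment over 24304 genes, threshold 0.05), at 9 h on 6 arrays and for control at 24 h minus control at 9 h on 8 arrays in 4 groups. At 24 h IQ1 and control were compared without a test. The scripts were tested on simulated data. Alternatives were leaving out each array, array weights, an intensity trend with a robust prior, genes above the median gene mean of 6.72, the mean over spots, a replicate block, a fit of 4 groups for the 9 h comparison, the 4 control arrays alone, and a 3-fold size at 24 h. Beyond the 10 members, pathway genes were named where the 9 h groups did not overlap without control replicate 2 and differed by over 0.75 on the log2 scale, with the brightest receptors and SMADs; *Smad1*, *Smad9*, *Tbx2*, *Tbx3* and *Id2* were added after their values were seen. The members and lists were chosen with earlier results of these data known, and the mean over spots and the median filter without control replicate 2 were added after seeing the data.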

Additional observations from a re-analysis of the deposited data

Results flagged for a closer look

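The brightest *Bmp5* spot had opposite orders at the 2 times: with IQ1 every array at 9 h lay above every control array (9.44, 9.29 and 9.33 on the IQ1 arrays, against 9.18, 6.69 and 9.12 on the control arrays), while the IQ1 array at 24 h lay below the control array, a difference of -0.78 (10.48 on the IQ1 array, against 11.26 on the control array). The difference between the times was not tested, and at 24 h there was 1 array per condition. At 9 h the difference did not pass limma's test and was 0.20 with 5 arrays (SE 0.21, 95% interval -0.30 to 0.71). The 2 dimmest of its 4 spots gave -0.23 and -0.13 there, and the mean over the spots without control replicate 2 was -0.021, the same sign as at 24 h.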

How the results depend on the processing

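None of the genes tested passed in the IQ1 comparison at 9 h under any of the 15 alternatives (*Bmp2*, *Bmp7* and *Smad7* were too dim for the 2 with the filter), nor when any array was left out (0 to 0). With the replicate block the smallest adjusted p over all genes in limma's test was 0.757 and *Id4* differed by 1.79; the replicate numbers did not pair the arrays (correlations of same-numbered deviations 0.00379, -0.00359 and 0.0153), and 1 of 3 IQ1 arrays and 0 of 3 controls correlated best with their own number. Over all genes, 0 were called with 6 arrays, 3 without control replicate 2, 233 with array weights, and, without control replicate 2, 139 with an intensity trend and robust prior, 31 among brighter genes and 9 with the mean over spots. Directions at 9 h turned without control replicate 2, also with the trend or the filter, for *Bmp4* (-0.29), *Id1* (-0.30) and *Smad6* (-0.096), and, also with the trend, for *Smad7* (-0.0019). With array weights they turned for *Bmp4* (-0.21), *Id1* (-0.37), *Smad6* (-0.28), *Smad7* (-0.11) and *Bambi* (-0.16), and with the mean over spots without that array for *Bmp4* (-0.16), *Bmp5* (-0.021), *Id1* (-0.30), *Smad6* (-0.10) and *Smad7* (-0.33). Leaving out each array gave -0.29 to 0.71 for *Bmp4*, -0.30 to 1.62 for *Id1*, -0.14 to 0.22 for *Smad6*, -0.0019 to 1.72 for *Smad7*, 1.03 to 2.26 for *Bmp2* and 1.01 to 2.30 for *Id4*. The direction of *Smad6* also turned without IQ1 replicate 1 (-0.14). At 24 h 2 genes were past 2-fold and 0 past 3-fold, and the mean over spots gave -0.42 for *Bmp4*, -0.69 for *Bmp5* and 0.45 for *Smad7*. In control at 24 h minus control at 9 h, 1 gene (*Bmp5*) passed with array weights and 1 (*Bmp5*) among brighter genes without control replicate 2, and 0 otherwise, also when each array was left out (0 to 0). Directions turned with array weights for *Bmp2* (-0.77), *Bmp4* (-0.46) and *Id4* (-0.26), with the mean over spots for *Bmp4* (-0.15) and, also without that array, for *Bmp2* (-0.61), *Bmp4* (-0.41) and *Id4* (-0.20), and with the filter without that array for *Bmp4* (-0.47) and *Id4* (-0.20). Leaving out each control gave -0.61 to 0.61 for *Bmp2*, -0.47 to 0.53 for *Bmp4*, -0.90 to 0.26 for *Id3*, -0.20 to 1.09 for *Id4* and -1.63 to 0.087 for *Smad7*. Why the directions turned was not tested beyond leaving out single arrays. *Bmp7* and other genes near the lower quartile are limited by dim signal.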
